A study of Mus musculus with 18 samples.

Results

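The libraries described here are 6 of the 18 of a study on cultured fetal mouse kidneys, those of the cultures that received the Mylk-shRNA vector. They were chosen by their labels, as 3 libraries of mCherry-positive cells and 3 of mCherry-negative cells. Positive and negative libraries were compared in a fit that removes the shift shared by all libraries of a litter. Wild-type kidneys of the outbred CD1 stock were dissected at embryonic day 14 and exposed for 4 hours to AAV2, an adeno-associated virus that delivers DNA to cells. The vector carried the red fluorescent protein mCherry, driven by the ubiquitous CAG promoter, upstream of 2 mir30-based short hairpin RNA (shRNA) cassettes directed against separate regions of Mylk. Mylk encodes myosin light chain kinase, which phosphorylates the light chain of myosin II and so starts actomyosin contraction. The explants were then embedded in a gel of collagen I and Matrigel and kept for 72 hours in DMEM with 10% fetal bovine serum and penicillin and streptomycin. The kidneys of 1 condition were pooled before digestion with trypsin and collagenase for 30 minutes. Sorting kept the brightest 25% of cells for mCherry as positive and the dimmest 50% as negative. Both fractions therefore came from the same vector-treated cultures, and the negative cells were bystanders that had also been exposed to the virus. The other 12 libraries, used here for reference, came from cultures treated in the same way with a Rock1/2-shRNA vector (Rock1 and Rock2 encode kinases that promote contraction) or with a scramble-shRNA vector, which holds shuffled Rock1 and Rock2 target sequences. A replicate is 1 litter, so every group held 3 libraries. The standard errors come from a fit to all 18 libraries that removes the shift between litters, so they describe the spread that remains within litters, pooled over the 6 groups.

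Total counts were 9662668, 4197378 and 3547643 in the positive libraries of litters 1, 2 and 3, and 11325892, 12057209 and 4519242 in the negative libraries. Mitochondrially encoded genes took 2.01 to 9.16% of the counts, with both highest values in litter 3. The negative library of litter 3 stood apart from the other 5. It had counts on 35685 genes, against 24279 to 30886, and the highest mitochondrial share. Levels are given as CPM, a count relative to the sum of its own library, in the order of litters 1, 2 and 3. Log2 fold changes are of the positive over the negative fraction, with a standard error (SE) from the fit.

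The embryonic kidney grows from an epithelial tree, the ureteric bud, whose tips induce the surrounding nephron progenitors to form epithelial vesicles that become nephrons. Around both lies a stroma of fibroblast-like cells, from which pericytes, smooth muscle and renin cells derive, together with endothelium, fetal macrophages and circulating red cells. AAV2 binds heparan sulfate on the cell surface and enters by endocytosis, and a sort on its reporter divides such a tissue by how much vector product each cell holds. In these bulk libraries, fewer cells of a type and less RNA per cell cannot be told apart.

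Of 16544 genes tested, 4019 differed between the fractions at an adjusted p under 0.05, or 24.3%. Of all tested genes, 13.2% (2182) were higher and 11.1% (1837) were lower in positive cells. Among the called genes 3748, or 93.3%, had the same sign in all 3 litters. The changes in the upward direction reached further, since 135 called genes were more than 8-fold higher and 21 more than 8-fold lower. The median log2 fold change over all tested genes was -0.02. The 12 genes with the highest fold changes under the naming rule were 9 genes of myeloid cells with Gpnmb and the embryonic globins Hba-x and Hbb-y. The 12 lowest included the nephron-forming genes Dll1, Lhx1, Osr2 and Emx2 and the hypoxia target Car9. Without the litter block 2186 genes were called, 1335 (8.07%) higher and 851 (5.14%) lower, and with only the 6 libraries in the fit 2192 were called. DESeq2's test with the litter block called 1895 genes higher (11.5%) and 1666 lower (10.1%).

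**Figure D1:**
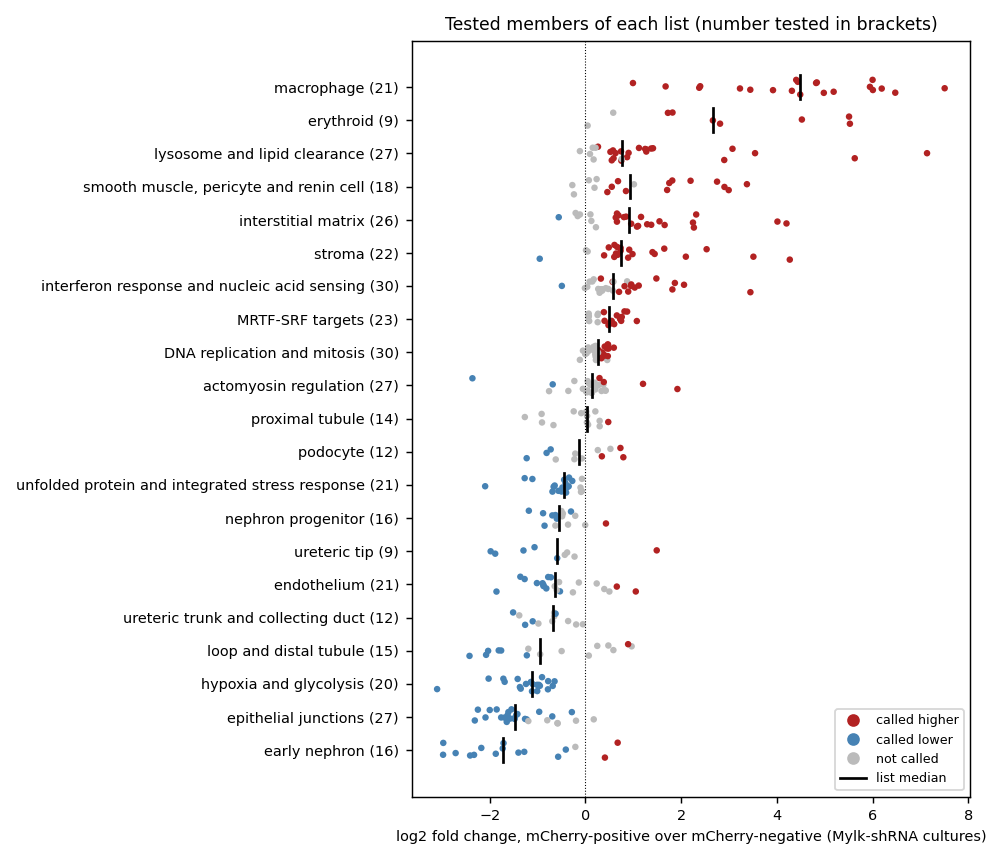
Log2 fold change of the positive over the negative fraction (x axis) for each tested member of 21 gene lists (rows), with red for genes called higher, blue for genes called lower, grey for genes not called, and a black bar at the list median. Macrophage genes lie farthest to the right, with a median of 4.49, and early nephron genes farthest to the left, with a median of -1.72.

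The targeted transcript was measured first. Mylk (ENSMUSG00000022836) stood at 169, 187 and 168 CPM in the positive libraries and at 75.5, 59.1 and 86.3 CPM in the negative ones. Every positive library was thus above every negative one, in the fraction that was sorted for the knockdown vector. The log2 fold change was 1.20 ± 0.12 (SE), or 2.30-fold (95% interval 1.94 to 2.73), with an adjusted p of 1.41e-07 in edgeR's quasi-likelihood test. The same contrast gave 1.47 ± 0.12 in scramble-shRNA cultures and 1.45 ± 0.12 in Rock1/2-shRNA cultures. The difference from scramble-shRNA was -0.27 on the log2 scale (95% interval -0.61 to 0.07) and that from Rock1/2-shRNA was -0.25 (-0.59 to 0.09), and neither passed the test. The counts are summed over the gene and do not separate its isoforms. Rock1 stood at 72.9, 93.6 and 89.5 CPM in positive and 78.1, 75.8 and 101 CPM in negative libraries, and Rock2 at 64.5, 76.8 and 76.7 against 76.8, 65.2 and 106 CPM. Neither was called, with log2 fold changes of -0.05 and -0.23.

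Other genes of contraction were read next. Of 27 tested genes of actomyosin regulation, 4 were higher and 2 lower in positive cells, a share near the background, with a list median of 0.13, and 9 were higher without the negative library of litter 3. Without the positive or the negative library of litter 1, or with only the 6 libraries, 2 were higher and 1 lower, and Myl6 and Rhoc were not called. Besides Mylk, the higher members were Myl9, Myl6 and Rhoc, where Myl9 and Myl6 encode myosin light chains and Rhoc a small GTPase. Myl9 moved most, from 26.8, 16.4 and 31 CPM in negative to 114, 82.2 and 86.5 CPM in positive libraries, a log2 fold change of 1.92 ± 0.17 with an adjusted p of 1.3e-07. The lower members were Ppp1r14a (-0.68 ± 0.11), an inhibitor of myosin phosphatase, and Ppp1r14c, which stood at 0.31, 0.357 and 0 CPM against 1.77, 1.58 and 0.885 CPM.

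Smooth muscle genes showed larger differences. Of the 19 genes listed for smooth muscle, pericytes and renin cells 18 were tested, and 12 were higher and none lower (median log2 fold change 0.93). Acta2, smooth muscle actin, stood at 684, 325 and 359 CPM in positive and 96.9, 67.7 and 116 CPM in negative libraries. Its log2 fold change was 2.20 ± 0.33 (adjusted p = 0.000501), and the groups did not overlap although the positive library of litter 1 was far above the other positive ones. Myh11, the smooth muscle myosin heavy chain, rose from 2.12, 1.49 and 5.31 to 26.1, 14.5 and 17.2 CPM, and Cnn1, which encodes calponin, from 1.41, 1.33 and 1.99 to 18.3, 7.62 and 11.6 CPM. Akr1b7, a marker of renin-lineage cells, was higher by 2.75 ± 0.29 on the log2 scale. Renin itself (Ren1) was at 2.07, 4.05 and 2.82 CPM against 0.883, 1.33 and 2.21 CPM and was not called. The pericyte genes of highest level that were not called, Kcnj8, Abcc9 and Mcam, had log2 fold changes of 0.19, -0.27 and 0.07. The summed level of the list was 1179 to 1597 CPM in positive and 665 to 876 CPM in negative libraries. Mylk is itself strongly expressed in smooth muscle, and the part of the smooth muscle markers in its rise was not tested.

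MRTF and SRF are a cofactor and a transcription factor that switch on actin and focal adhesion genes when actin polymerises, and SRF binds a DNA element called the CArG box. Of 23 genes listed as their targets all were tested, and 16 were higher and none lower in positive cells (median 0.50), and 10 were higher without the positive library of litter 1. Actn1, an actin crosslinker, stood at 424, 427 and 365 CPM in positive and 236, 199 and 226 CPM in negative libraries, a log2 fold change of 0.82 ± 0.09 (adjusted p = 1.47e-06). Tpm1 (0.87 ± 0.11), Flna (0.72 ± 0.11) and Lima1 (0.73 ± 0.12), all of which encode actin-binding proteins, were higher by similar amounts. Actg1, at 1757, 1728 and 1380 against 1473, 1411 and 1011 CPM, was not called. A CArG box on either strand was found in the 250 bases before the start of 7 of the 20 listed genes with a promoter window in RefSeq, or 35%, against 439 of all 27025 genes of that table, or 1.62%. Of these 7, Vcl, Fhl2, Filip1l and Lima1 were called, and Srf, Actg1 and Fhl1 were not. The list is made of known targets, so the 35% describes how it was chosen and not which factor acted here. As examples, chosen after their values were seen, the stretches around the match are printed for 3 of the called genes. They are read 5′ to 3′ on the gene's strand from the RefSeq table of the GRCm38.p6 build, at chr14:20929148-20929225 (plus strand) for Vcl, chr16:57549135-57549234 (plus strand) for Filip1l and chr15:99820150-99820241 (minus strand) for Lima1, with the CArG box in capitals.
Vcl: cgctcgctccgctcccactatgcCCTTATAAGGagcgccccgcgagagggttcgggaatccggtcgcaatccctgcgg
Filip1l: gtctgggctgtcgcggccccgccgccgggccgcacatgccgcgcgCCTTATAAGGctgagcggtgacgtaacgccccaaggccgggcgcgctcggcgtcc
Lima1: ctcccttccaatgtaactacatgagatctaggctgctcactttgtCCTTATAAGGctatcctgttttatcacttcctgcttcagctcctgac
Vcl, which encodes the focal adhesion protein vinculin, stood at 100, 111 and 71.6 CPM in positive and 66.3, 52.7 and 66.2 CPM in negative libraries (log2 fold change 0.55 ± 0.12). Filip1l, whose product binds filamin, was higher by the same 0.55 ± 0.13. A match describes these letters only, and the binding of SRF was not measured.

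Markers of macrophages, the phagocytes that populate the fetal kidney, differed most between the fractions. All 21 tested members of the 22 were higher in positive cells, with a median log2 fold change of 4.49. Their summed level ranged from 369 to 773 CPM in positive and from 19.3 to 33.9 CPM in negative libraries. With negative levels this low, members could pass the filter on low counts through positive libraries alone. The count of higher members therefore rests in part on the filter. Over the alternatives, which include no filter, 20 to 21 members were higher. C1qc, a chain of the complement protein C1q, stood at 54.5, 107 and 94.4 CPM in positive and 0.441, 0.912 and 1.77 CPM in negative libraries. It was 88.8-fold higher, with a log2 fold change of 6.47 ± 0.20 and an adjusted p of 2.63e-15, on 1310 counts in the positive and 24 in the negative libraries. C1qb and C1qa, the other chains, were 63.9-fold and 61.5-fold higher. Cx3cr1, a chemokine receptor of tissue macrophages, was at 8.59, 20.5 and 11 CPM against 0.177, 0.0829 and 0.443 CPM, where the negative values rest on 5 counts in all. Adgre1, which encodes the macrophage antigen F4/80, had 157 counts in positive and 1 count in negative libraries. Ctss, a lysosomal protease of antigen-presenting cells, was 73.0-fold higher, and Fcer1g and Tyrobp, adaptors of immune receptors, were 22.4-fold and 28.2-fold higher. C3ar1, C5ar1 and Mpeg1, which encode receptors for complement fragments and a pore-forming protein of phagocytes, were 70.9-, 41.8- and 48.1-fold higher. Of the list, Cd163 was the member too low to be tested.

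Genes of lysosomes and lipid clearance moved with them. Of 27 tested members 21 were higher and none lower (median 0.76). Gpnmb, a glycoprotein of lysosome-rich and lipid-laden phagocytes, showed the largest fold change under the naming rule, from 0.618, 1.66 and 2.21 CPM in negative to 146, 298 and 129 CPM in positive libraries. It was 141-fold higher (log2 fold change 7.14 ± 0.34, adjusted p = 1.28e-09). Apoe, the lipid carrier, stood at 359, 531 and 448 against 41.1, 32.1 and 35.8 CPM, a log2 fold change of 3.54 ± 0.14. Trem2, a lipid-sensing receptor of macrophages, was higher by 5.63 ± 0.43. Lysosomal genes expressed in most cell types differed less, with Ctsd, which encodes a protease, at 377, 565 and 393 against 184, 173 and 164 CPM (1.27 ± 0.10). Ctsb, another protease gene, was higher by 1.25 ± 0.10 and Grn, which encodes progranulin, by 1.12 ± 0.08. Lamp2 and Npc2 were not called, with log2 fold changes of 0.17 and 0.21. The macrophage markers rose in the same libraries, and their part in the lysosomal change was not tested.

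Globin transcripts were also higher in positive cells, with the widest spread between litters. Of 15 erythroid genes 9 were tested, and 7 were higher, with a median log2 fold change of 2.66. Members low in negative libraries could pass the filter on low counts through positive libraries alone. With no filter the median was 1.48, so these values rest in part on the filter. The summed erythroid level was 444, 1320 and 2195 CPM in positive libraries and lay between 101 and 148 CPM in negative ones. Hbb-y, the embryonic beta-like globin, stood at 125, 320 and 652 CPM in positive and 9.40, 3.23 and 6.64 CPM in negative libraries (log2 fold change 5.51 ± 0.96, adjusted p = 0.00185). Hba-x, the embryonic alpha-like globin, was higher by 5.52 ± 0.95. The adult genes rose less, with 2.81 ± 0.63 for Hba-a1 and 1.72 ± 0.47 for Hbb-bs, whose call was lost in 8 of 13 alternatives, among them no block, a block by culture and no filter. Hba-a1 and Hba-a2 are near-identical copies whose reads the counting may have shared between them. Without litter 3, 2 of the erythroid genes were called, and without the negative library of litter 2, 4 were. Without litter 3 Hba-x, Hba-a1, Hba-a2 and Hbb-bs were not. Genes of red cell precursors such as Alas2, Klf1, Gata1, Epb42 and Rhag were too low to be tested, and Slc4a1 and Ahsp were not called.

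**Figure D2:**
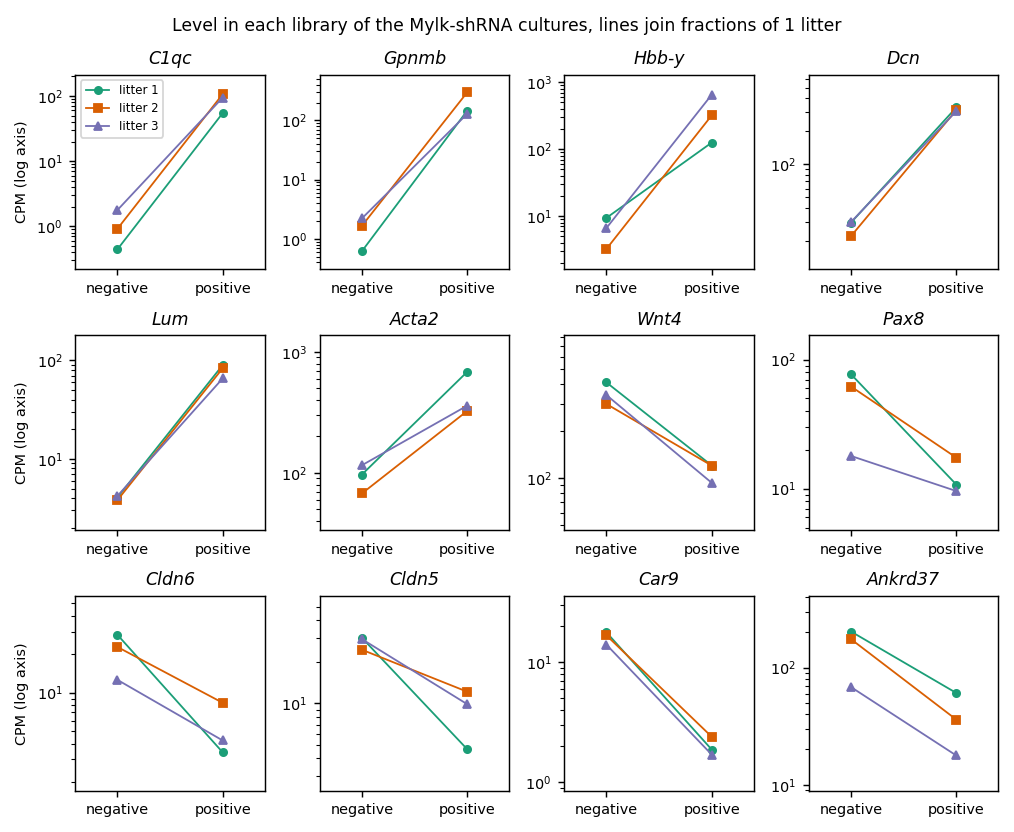
CPM on a log axis (y) in the negative and positive fraction (x) for 12 genes, with 1 line for each of the 3 litters of the Mylk-shRNA cultures. All lines rise for C1qc, Gpnmb, Hbb-y, Dcn, Lum and Acta2 and fall for Wnt4, Pax8, Cldn6, Cldn5, Car9 and Ankrd37, and Pax8 falls least in litter 3, from 17.9 to 9.58 CPM.

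Stromal markers were higher in positive cells as a group. Of 22 tested genes 19 were higher and 1 lower (median 0.73). Their summed level was 9759 to 12358 CPM in positive and 5851 to 6328 CPM in negative libraries, the highest sum among the cell type lists. Foxd1, the transcription factor that defines the cortical stroma, stood at 422, 390 and 248 CPM in positive and 120, 134 and 111 CPM in negative libraries (1.45 ± 0.11, adjusted p = 3.34e-09). Postn, which encodes the matrix protein periostin, was at 209, 297 and 197 against 46.1, 53.2 and 57.3 CPM, 4.28-fold higher. Crabp1, a retinoic acid binding protein, was higher by 2.53 ± 0.19. The member that fell was Alx1, a homeobox gene, at 32.5, 23.6 and 26.2 CPM in positive and 61.5, 38.9 and 56.2 CPM in negative libraries (-0.95 ± 0.12), which is named after its value was seen.

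The genes of the interstitial matrix followed the same direction. Of 26 tested members 19 were higher and 1 lower (median 0.90). The small leucine-rich proteoglycans, which coat collagen fibrils, were among the largest differences. Dcn, decorin, stood at 331, 314 and 306 CPM in positive and 29.3, 22.1 and 29.7 CPM in negative libraries, 11.4-fold higher (log2 fold change 3.51 ± 0.19). Lum, lumican, was at 89.3, 82.9 and 65.4 against 4.06, 3.82 and 4.2 CPM (4.27 ± 0.28), and Ogn, osteoglycin, was 18.4-fold higher. Thbs2, a matricellular thrombospondin, was 16.1-fold higher. The elastic fibre genes Eln and Fbln5 were higher by 1.65 ± 0.11 and 2.31 ± 0.17 on the log2 scale, and Bgn, biglycan, by 1.55 ± 0.12. Vcan, the large proteoglycan versican, went the other way, at 216, 285 and 177 against 289, 325 and 325 CPM (-0.56 ± 0.11), and is named after its value was seen. Sparc, Ecm1 and Fbln1, the members of highest level that were not called, had log2 fold changes of 0.12, -0.16 and 0.10.

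Genes of forming nephrons were lower in positive cells. Of 16 tested early nephron genes 13 were lower and 2 higher, with a median log2 fold change of -1.72. Wnt4, the signal that drives progenitors into epithelium, stood at 121, 120 and 93.5 CPM in positive and 410, 298 and 340 CPM in negative libraries, a log2 fold change of -1.71 ± 0.13 with an adjusted p of 5.35e-09. Lhx1, a transcription factor of the renal vesicle, was at 3.00, 8.34 and 7.05 against 62.7, 36.2 and 17.3 CPM (-2.97 ± 0.45). Its antisense partner Lhx1os was lower by a like amount (-2.86 ± 0.38), but the use of strand in counting is not stated, so reads of the pair cannot be told apart. Dll1, a Notch ligand of the vesicle, was at 3.42, 3.34 and 4.23 against 38.6, 25.3 and 13.5 CPM (-2.97 ± 0.32). Pax8, a transcription factor of the nephron lineage, was lower by 2.18 ± 0.28 in size, at 10.8, 17.4 and 9.58 against 77, 61.9 and 17.9 CPM. For Lhx1, Dll1 and Pax8 the negative library of litter 3 lay closest to the positive ones, without overlap. Fgf8 (-1.87 ± 0.28) and Bmp2 (-1.40 ± 0.15), both secreted signals, were lower too. Foxc2 (0.41 ± 0.09) and Dkk1 (0.67 ± 0.15), a Wnt antagonist, were the members that were higher, and they are named after their values were seen. The call of Foxc2 was lost without the litter block and with only the 6 libraries in the fit.

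Nephron progenitor genes differed less and depended on the litter. Of 16 tested members 8 were lower and 1 higher, with a median of -0.55. By litter the median log2 ratio of CPM (with 0.5 added to each value) was -0.67, -0.63 and 0.15. Six2, the transcription factor that keeps progenitors undifferentiated, stood at 165, 222 and 168 CPM in positive and 288, 364 and 165 CPM in negative libraries (-0.60 ± 0.15, adjusted p = 0.00796), so that litter 3 showed no fall and the groups overlapped. Its call was lost without the litter block, with only the 6 libraries, without the positive library of litter 1 and without the negative library of litter 2. Uncx, a homeobox gene, was at 65.5, 85.1 and 73.0 against 191, 202 and 96.8 CPM (-1.18 ± 0.17), and Eya1, a partner of Six2, was lower by 0.61 ± 0.14 in size. Cited1, a marker of the earliest progenitors, was at 79.2, 99.6 and 98.1 against 116, 158 and 65.9 CPM and was not called, although it was called lower without litter 3. Gdnf, the growth factor by which progenitors and stroma draw out the ureteric bud, was the member that was higher, at 113, 119 and 87.4 against 80.0, 88.7 and 58.2 CPM (0.43 ± 0.10). Without litter 3, 12 members were lower (median -0.78), and without the positive library of litter 1, 4 were lower and without the negative library of litter 2, 5 were. Without the litter block 4 were lower and Gdnf was not called. The negative library of litter 3, which stood apart in mitochondrial share, is the one in which Six2 was low, and the part of that difference was not tested.

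Epithelial genes were lower as well. Of 27 tested genes of epithelial junctions and polarity 21 were lower and none higher, with a median of -1.48, and their summed level was 210 to 303 CPM in positive against 304 to 483 CPM in negative libraries. Without the positive library of litter 1, 12 of them were lower. Cldn6, a claudin of embryonic epithelia, stood at 3.42, 8.34 and 4.23 against 28.4, 22.8 and 12.6 CPM (-2.25 ± 0.22, adjusted p = 1.41e-07). Epcam, an adhesion molecule of simple epithelia, was at 10.2, 21.2 and 12.4 against 56.9, 49.4 and 25.4 CPM (-1.76 ± 0.22). Ocln, occludin (-2.00 ± 0.28), the polarity gene Crb3 (-2.09 ± 0.29) and Ovol1, an epithelial transcription factor (-2.31 ± 0.34), were lower by similar amounts. Of 9 tested ureteric tip genes 5 were lower, among them Ret, the receptor for Gdnf (-1.89 ± 0.36), and Wnt11 (-1.06 ± 0.14), while Adamts18, a protease gene, was higher (1.49 ± 0.32). Without the positive library of litter 1, 3 were lower. Ret was low throughout, at 0.621, 1.43 and 0.564 against 3.00, 3.40 and 2.43 CPM. Of 12 tested genes of the ureteric trunk and collecting duct the 4 that were lower were Hoxb7, Krt19, Calb1 and Wnt7b, with log2 fold changes of -0.62, -1.10, -1.51 and -1.26, and none was higher. With a block by culture 7 were lower, and without the positive library of litter 1, 2 were. The call of Calb1 was lost without the positive library of litter 1, and that of Wnt7b without that library, without the positive library of litter 2 or without the negative library of litter 1.

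More mature nephron segments were less uniform. Of 12 tested podocyte genes 3 were lower and 3 higher (median -0.14), against 11.1% and 13.2% of all tested genes. The slit diaphragm gene Nphs1 was too low to be tested. Wt1, a transcription factor shared by progenitors and podocytes, stood at 82.4, 108 and 116 against 154, 151 and 174 CPM (-0.73 ± 0.09), and Podxl, a sialoprotein of podocytes and endothelium, was lower by 1.23 ± 0.22 in size. Npr3, a natriuretic peptide receptor (0.79 ± 0.11), and Synpo, an actin-binding protein (0.73 ± 0.17), were higher. With only the 6 libraries in the fit 1 podocyte gene was higher, and Synpo was not called. The calls of Clic5 (lower) and Cdkn1c (higher) were lost in 9 and 6 of 13 alternatives. Of 14 tested proximal tubule genes 1 was called, against 24.3% of all tested genes. It was Dab2, an endocytic adaptor that macrophages and stroma also express (0.48 ± 0.12), and it was not called with only the 6 libraries in the fit. Without litter 3, or with no filter on low counts, 3 proximal tubule genes were lower, and without the positive library of litter 3, 2 were. Slc34a1, the phosphate transporter of the proximal tubule, was at 23.0, 28.8 and 37.8 against 17.8, 18.3 and 42.9 CPM. Of 15 tested genes of the loop and distal tubule 6 were lower and Mecom, a transcription factor, was higher (0.89 ± 0.11), with 3 lower without the positive library of litter 1.

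**Figure D3:**
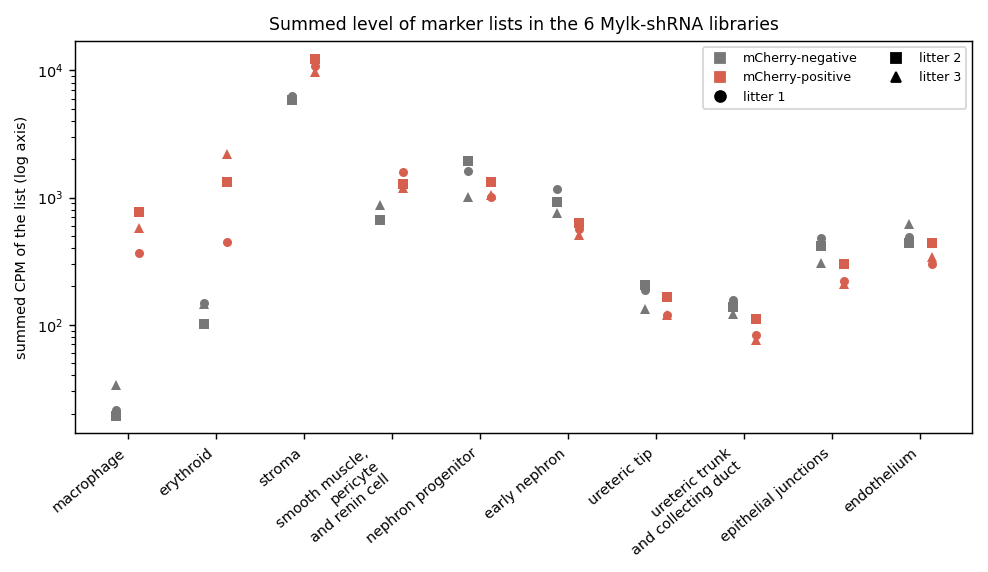
Summed CPM on a log axis (y) of 10 marker lists (x) in the 3 negative (grey) and 3 positive (red) libraries, with 1 marker shape per litter. The macrophage sum is 19.3 to 33.9 CPM in negative and 369 to 773 CPM in positive libraries, while the nephron progenitor sums of both fractions nearly coincide in litter 3, at 1016 and 1049 CPM.

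Endothelial genes were lower in positive cells for the most part. Of 21 tested members 11 were lower and 2 higher, with a median of -0.64. By litter the medians were -0.83, 0.03 and -0.93, and in litter 2 the summed level was 441 CPM in both fractions. Without the positive library of litter 1, or without the litter block, 7 were lower. Cldn5, the claudin of vascular junctions, stood at 4.66, 12.2 and 9.87 CPM in positive and 29.8, 24.5 and 29.2 CPM in negative libraries (-1.86 ± 0.22, adjusted p = 3.34e-06). Flt1, a VEGF receptor, was at 15.2, 24.1 and 18.6 against 36.7, 31.9 and 74.0 CPM (-1.27 ± 0.21). Apln, a peptide of sprouting tip cells (-1.36 ± 0.18), and Egfl7, a secreted endothelial protein (-1.01 ± 0.13), were lower too. Cdh5, VE-cadherin, was lower by 0.78 ± 0.17 in size, at 38.8, 77.1 and 41.2 against 83.6, 76.7 and 87.6 CPM, with litter 2 showing no fall. Gja4 (0.66 ± 0.19) and Gja5 (1.05 ± 0.27), which encode the connexins of arterial endothelium, were the 2 members that were higher, and they are named after their values were seen. Gja5 stood at 10.5, 19.8 and 14.4 against 9.01, 5.14 and 5.53 CPM. Neither was called without the negative library of litter 2, and Gja4 was also not called without the positive library of litter 3, without the block or with only the 6 libraries. Emcn and Eng, both of endothelium, were not called, with log2 fold changes of 0.24 and 0.39, and Eng was called higher without litter 3.

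The genes of the hypoxia response were lower in positive cells without exception among those tested. Cells short of oxygen stabilise the factor HIF, which binds a DNA element with the core ACGTG and turns on glycolytic enzymes, the glucose transporter and angiogenic signals. All 20 listed genes were tested and all 20 were lower (median -1.11), with litter medians of -1.07, -1.01 and -1.02. All 20 were also lower with each of the 6 libraries left out in turn and without litter 3, and 16 were lower without the litter block. The core was found on either strand in the 250 bases before the start of 14 of the 19 genes with a promoter window, or 73.7%, against 4998 of the 27025 genes of the RefSeq table, or 18.5%. The list is made of known targets, so this describes how it was chosen and not which factor acted here. The 160 bases before the start are printed for 4 of these genes, as examples of the list in which the core lies within the stretch, chosen after their values were seen. They are read 5′ to 3′ on the gene's strand in the GRCm38.p6 build, at chr4:43506866-43507025 (plus strand) for Car9, chr4:119108585-119108744 (plus strand) for Slc2a1, chr8:45999851-46000010 (minus strand) for Ankrd37 and chr14:45318573-45318732 (minus strand) for Ero1a. Capitals mark the core, which reads CACGT where it lies on the opposite strand.
Car9: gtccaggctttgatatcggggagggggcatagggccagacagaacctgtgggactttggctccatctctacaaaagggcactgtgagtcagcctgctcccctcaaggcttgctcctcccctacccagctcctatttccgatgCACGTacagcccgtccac
Slc2a1: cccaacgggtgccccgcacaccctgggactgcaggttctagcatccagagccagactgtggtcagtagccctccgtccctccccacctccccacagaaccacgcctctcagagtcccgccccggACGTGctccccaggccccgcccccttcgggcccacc
Ankrd37: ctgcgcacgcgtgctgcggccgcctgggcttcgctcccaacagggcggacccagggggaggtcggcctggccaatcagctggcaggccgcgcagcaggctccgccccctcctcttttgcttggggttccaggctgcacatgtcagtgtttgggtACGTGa
Ero1a: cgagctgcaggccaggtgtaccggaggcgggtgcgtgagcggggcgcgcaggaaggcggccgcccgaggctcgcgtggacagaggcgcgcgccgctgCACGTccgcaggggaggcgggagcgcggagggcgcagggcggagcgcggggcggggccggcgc
Car9, carbonic anhydrase IX, stood at 1.86, 2.38 and 1.69 CPM in positive and 17.7, 16.7 and 13.9 CPM in negative libraries, 8.57-fold lower (log2 fold change -3.10 ± 0.26, adjusted p = 1.34e-08). Ankrd37 was at 60.7, 36 and 17.8 against 203, 175 and 68.2 CPM (-2.02 ± 0.14), so the level differed between litters while the ratio held. Ero1a, an oxidase of protein folding in the endoplasmic reticulum, was at 74.5, 58.7 and 47.2 against 228, 178 and 147 CPM (-1.69 ± 0.11). Slc2a1, the glucose transporter GLUT1, was at 163, 173 and 96.4 against 373, 291 and 216 CPM (-1.10 ± 0.09). The glycolytic enzyme gene Pgk1 was 2.20-fold lower and the stress gene Ndrg1 2.67-fold lower. Ddit4, an inhibitor of mTOR signalling, was 2.55-fold lower, and it was not called without the litter block. Vegfa, the main growth signal of endothelium, stood at 254, 146 and 183 against 571, 382 and 479 CPM (-1.37 ± 0.11).

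Genes of the unfolded protein and integrated stress responses, which adjust folding capacity and amino acid supply, were lower by smaller amounts. Of 21 tested members 17 were lower and none higher (median -0.44), and 7 were lower without the litter block. Trib3, a pseudokinase induced by ATF4, stood at 5.38, 7.39 and 7.05 against 27.5, 29.6 and 19 CPM (4.27-fold lower, adjusted p = 6.15e-07). Ddit3, which encodes CHOP, was at 16.7, 16.6 and 16.8 against 40.2, 31.8 and 30.0 CPM (-1.11 ± 0.14). Hsp90b1, the chaperone of the endoplasmic reticulum, was lower by 0.64 ± 0.10 in size and Atf4 by 0.48 ± 0.09. Calr, calreticulin, was not called (-0.07).

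The remaining lists held smaller or mixed differences. Of 30 tested genes of DNA replication and mitosis 14 were higher and none lower (median 0.26). Ccna2, cyclin A2, stood at 140, 127 and 83.4 against 98.3, 85.8 and 56.2 CPM (0.47 ± 0.08, adjusted p = 0.000189), and Ccne1, cyclin E1, was higher by 0.59 ± 0.11. Without the litter block 1 of the 30 was called and Ccna2 was not, and without litter 3, 7 were higher and 1 lower. The replication genes Pcna and Mcm7 were not called, with log2 fold changes of 0.03 and -0.12. Of 30 tested genes of the interferon response and nucleic acid sensing 14 were higher and 1 lower (median 0.57). Ifitm3, a membrane protein that restricts virus entry, was at 403, 348 and 383 against 215, 202 and 196 CPM (0.82 ± 0.11). Isg15 (1.48 ± 0.21), Ifit3 (2.06 ± 0.29) and Ifih1, a sensor of double-stranded RNA (1.82 ± 0.28), were higher. B2m, the light chain of MHC class I, was higher by 0.70 ± 0.11, while the heavy chain gene H2-K1 was lower, at 115, 107 and 109 against 161, 141 and 143 CPM (-0.49 ± 0.08). MHC class I genes are close copies of each other, so H2-K1 is uncertain. Macrophages express several of these genes, and their part in the rise was not tested.

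Genes of small RNA processing, AAV entry and heparan sulfate were listed because the vector depends on them. Of 18 tested genes of small RNA processing, the machinery that makes an shRNA into a silencing guide, 1 was called, against 24.3% of all tested genes. It was Ago4, an Argonaute gene, which was lower (8.64, 6.67 and 9.58 against 15.5, 13 and 15.7 CPM, -0.88 ± 0.17). None was higher, while 2 were higher without the negative library of litter 3. Of 23 tested genes for AAV entry 4 were higher and 3 lower (median 0.03), against 13.2% and 11.1% of all tested genes. Those higher were Sdc3 (0.57 ± 0.10), Itgb5 (0.34 ± 0.08), Vps35 (0.32 ± 0.09) and Sdc1 (0.27 ± 0.09), and those lower were Sdc2 (-0.55 ± 0.11), Sdc4 (-0.81 ± 0.18) and Gpc2 (-0.58 ± 0.20). Sdc1 to Sdc4 encode syndecans and Gpc2 a glypican, which carry heparan sulfate, Itgb5 an integrin chain and Vps35 a subunit of the retromer. The other 16 were not called. Among them AU040320 had a mean of 17.35 CPM in positive and 16.91 CPM in negative libraries (-0.03 ± 0.14). The calls of Sdc1 and Gpc2 were lost under most alternatives. Those of Itgb5 and Vps35 were lost without the litter block and with only the 6 libraries, and also without litter 3 for Itgb5 and without the positive library of litter 2 or the negative library of litter 1 for Vps35. Of the 4 higher calls 1 was left without the block, and 2 were left without either of those libraries. Sdc3 stood at 149, 169 and 128 against 92.2, 95.6 and 98.0 CPM, and Sdc4 at 40.7, 47.8 and 40.2 against 76.2, 71.6 and 65.6 CPM. Of 23 tested genes of heparan sulfate synthesis and trimming 8 were higher and 2 lower (median 0.17), against 13.2% and 11.1% of all tested genes. Without the negative library of litter 1, 5 were higher. Hs3st3b1, a 3-O-sulfotransferase gene, stood at 9.52, 10.2 and 8.74 against 39.0, 33.3 and 26.7 CPM (-1.88 ± 0.20), and Hpse, heparanase, was lower by 0.90 ± 0.15 in size. Sulf1, which removes 6-O-sulfate outside the cell, was at 34.5, 39.1 and 28.2 against 13.4, 9.95 and 6.64 CPM (1.67 ± 0.19).

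Basement membrane genes were split, with 6 higher and 10 lower of 24 tested, against 13.2% and 11.1% of all tested genes. Without the positive library of litter 1, 6 were lower. Lama1, the laminin chain of forming epithelia, was lower (2.38, 2.38 and 2.82 against 15.7, 7.88 and 7.08 CPM, -2.17 ± 0.34), and so was Npnt, nephronectin (-1.40 ± 0.23). Lama2, a laminin chain of muscle and mesenchyme, was higher (1.24 ± 0.18), as was Col4a1, a chain of type IV collagen (0.54 ± 0.11). Of 18 genes of YAP and TEAD, transcriptional regulators that respond to tension, 6 were higher and 1 lower, against 13.2% and 11.1% of all tested genes. Vgll3, a cofactor of TEAD, stood at 8.18, 5.72 and 5.36 against 2.30, 0.829 and 1.99 CPM (1.96 ± 0.29). Of 26 p53 targets 5 were higher and 5 lower, against 13.2% and 11.1% of all genes. Without the positive or the negative library of litter 1, 3 were higher and 3 lower, and 3 were lower without the positive library of litter 3. Cdkn1a, the cell cycle inhibitor p21, was at 48.8, 46.5 and 37.8 against 67.3, 60.1 and 55.3 CPM (-0.52 ± 0.09). Of 82 tested cytosolic ribosomal protein genes 17 were lower and none higher (median -0.33). Their litter medians of the log2 ratio of CPM (with 0.5 added to each value) were -0.21, -0.68 and 0.08. The count of lower genes ran from 2 to 73 with 1 Mylk-shRNA library left out in turn. Of 20 immediate early and dissociation stress genes, which respond to tissue digestion, 4 were lower and 1 higher, against 11.1% and 13.2% of all genes. Without the positive library of litter 3 or the negative library of litter 1, 2 were lower, and without the block 1 was. The higher count was 0 without the negative library of litter 1 and 3 without that of litter 3. Fos stood at 1341, 117 and 315 against 1067, 160 and 371 CPM, a pattern by litter and not by fraction. Among the 5 tested neuron and glia markers Stmn2, a neuronal protein gene (3.14 ± 0.37), and Fabp7, a fatty acid binding protein of glia (3.04-fold), were higher, and Erbb3 and Gap43 were lower. No tested marker of mesothelium (1) or adrenal cortex (2) was called.

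Some of the lowest genes belonged to no list. Gpr15lg, which encodes a secreted ligand of the receptor GPR15, had the lowest fold change under the naming rule, at 1.86, 1.19 and 1.97 CPM in positive and 32.9, 31.8 and 26.1 CPM in negative libraries. It was 18.3-fold lower (log2 fold change -4.19 ± 0.22, adjusted p = 9.76e-12), with no overlap between the groups. Npy, neuropeptide Y, was 6.74-fold lower, Pcp4, a regulator of calmodulin, 6.62-fold lower, and Derl3, a component of protein degradation in the endoplasmic reticulum, 7.33-fold lower. The transcription factor genes Osr2 and Emx2 stood at 6.42, 3.81 and 8.17 against 55.6, 23.2 and 17 CPM and at 2.79, 4.29 and 3.66 against 25.3, 16.8 and 9.74 CPM. The signalling adaptor gene Grb7 and Clec18a, which encodes a lectin, were 5.66-fold and 6.41-fold lower.

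**Figure D4:**
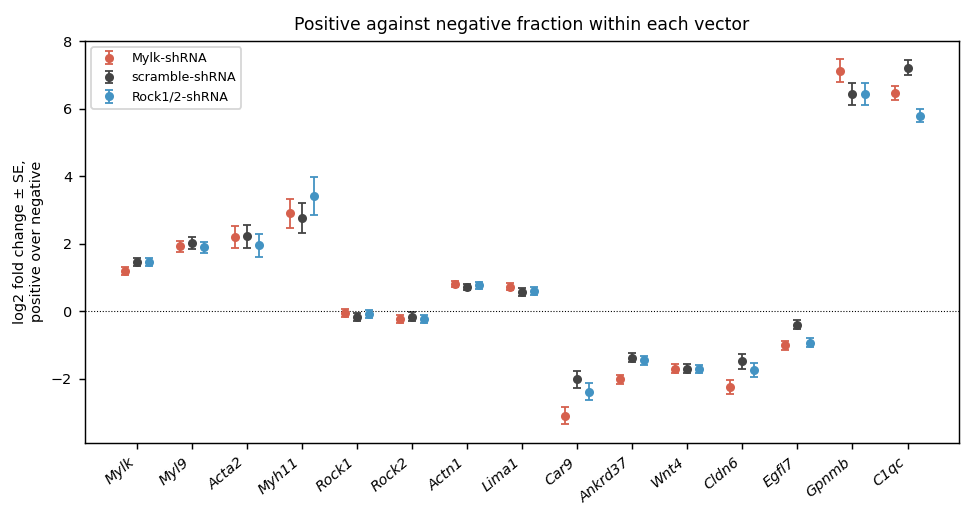
Log2 fold change of the positive over the negative fraction with its SE (y) for 15 genes (x) within Mylk-shRNA (red), scramble-shRNA (black) and Rock1/2-shRNA (blue) cultures, each from 3 litters. The 3 vectors lie on the same side of 0 for each gene plotted, and Mylk reads 1.20, 1.47 and 1.45.

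Whether the contrast of the fractions was particular to the Mylk-shRNA vector was asked by the difference of the log2 fold changes between vectors. No gene passed this test in edgeR, either against scramble-shRNA (0% of 16544 genes) or against Rock1/2-shRNA (0%). Before adjustment 807 genes (4.88%) and 400 genes (2.42%) had a p under 0.05. DESeq2 called 0 genes in each as well, and its unadjusted p was under 0.05 for 536 (3.24%) and for 212 (1.28%). The median SE of the difference was 0.215 and 0.216 on the log2 scale. With no filter on low counts 1 gene without a symbol, ENSMUSG00000134718, was called against scramble-shRNA (-3.38, adjusted p = 0.00792). Of the 4019 genes called in Mylk-shRNA cultures 3931 (97.8%) had the same sign in scramble-shRNA cultures and 3962 (98.6%) in Rock1/2-shRNA cultures. Over all tested genes the log2 fold changes of Mylk-shRNA cultures correlated with those of scramble-shRNA (Pearson r = 0.85) and Rock1/2-shRNA cultures (0.86). Of all tested genes 23.3% were called in scramble-shRNA cultures and 20.4% in Rock1/2-shRNA cultures. The genes called in both contrasts were 2635 with scramble-shRNA, or 65.6% of the Mylk-shRNA calls and 68.5% of the scramble-shRNA calls. With Rock1/2-shRNA they were 2625, or 65.3% and 77.9%. These contrasts share litters but no library. A missing call in one vector is not a difference from another.

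List medians are set side by side for the vectors, with no test of their difference. The macrophage median was 4.49 with Mylk-shRNA, 4.49 with scramble-shRNA and 4.53 with Rock1/2-shRNA, the hypoxia median -1.11, -1.09 and -1.12, and the early nephron median -1.72, -1.41 and -1.59. The endothelial median was -0.64, -0.15 and -0.57, the erythroid median 2.66, 3.26 and 1.55, and that of the loop and distal tubule -0.95, -0.49 and -0.58. The erythroid median rests in part on the filter on low counts. Egfl7 read -1.01, -0.40 and -0.94, a difference from scramble-shRNA of -0.61 (95% interval -1.01 to -0.21), and Cldn5 read -1.86, -1.15 and -1.63, a difference of -0.71 (-1.37 to -0.05). Among hypoxia genes Ankrd37 read -2.02, -1.38 and -1.45, a difference from scramble-shRNA of -0.64 (-1.03 to -0.24), and Car9 -3.10, -2.02 and -2.38, a difference of -1.08 (-1.92 to -0.24). Egfl7, Cldn5, Ankrd37 and Car9 were picked from their lists for this comparison after their values were seen. Their intervals are not adjusted for the number of genes. None of these differences passed the adjustment over all genes (adjusted p = 0.93 each).

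The genes with the smallest unadjusted p for the difference from scramble-shRNA were Tmem150a, Zfp57, Zfp738, Dcaf7 and Thsd4, each with an adjusted p of 0.93. Tmem150a, a membrane protein gene, stood at 38.1, 30.3 and 41.2 CPM in positive and 26.5, 18 and 27.2 CPM in negative libraries, and its log2 fold change of 0.56 was 0.64 below the 1.20 of scramble-shRNA. Zfp57, which encodes a zinc finger protein that keeps imprints, read -0.45 against 0.76, and Zfp738, another zinc finger gene, 0.38 against -0.51. Dcaf7, a ubiquitin ligase adaptor, read 0.44 against -0.01 and Thsd4, a matrix protein gene, -0.24 against -0.79. For the difference from Rock1/2-shRNA they were Acrbp (-1.13 against 0.04), Kdm3b (-0.56 against -0.03), Ttf1 (-0.39 against 0.27), Kank3 (-1.54 against -0.88) and Adpgk (-0.36 against 0.07), and none passed.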

How the data were processed

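From 100 to 300 ng of total RNA of sorted cells, mRNA was captured, reverse transcribed and tagmented, per the labels' protocols. The authors deposited 1 table of 78409 rows, which gives every library a column of estimated counts and a column of CPM. The submitters' processing notes name fastp 0.24.0, STAR 2.7.11, SAMtools 1.22.1 and featureCounts from Subread 2.1.1, and the build GRCm39. How they were set, which annotation was counted and whether strand was used is not given in the sources used here. Of the nonzero estimated counts the authors deposited, 22.1 to 27.4% in a library were fractions, and these were rounded to whole numbers. The authors' CPM column was checked to be each deposited count divided by the sum of its column and scaled.

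The 92 ERCC spike-in rows were left out, and genes without a symbol (21909) were not named. edgeR's filterByExpr (minimum count 10, minimum total 15) kept 16544 genes. edgeR's quasi-likelihood test, with TMM scaling and robust dispersions, used all 18 libraries in a model of group means plus a litter block (10 residual degrees of freedom). Benjamini-Hochberg adjustment ran over every gene tested, with a threshold of 0.05, and every adjusted p is from this test unless another is named. The litter was the block because the labels name the same 3 litters in every vector and fraction. Deviations from group means correlated with r = 0.237 to 0.639 over the 45 same-litter pairs of libraries. Libraries of 1 group differed by more than sampling noise, so none was merged. The difference between vectors was the interaction in the same fit. The SE of a log2 fold change was taken as its size divided by the square root of the F statistic of the quasi-likelihood test. The median SE was 0.152, or 0.118 above 10 CPM, and intervals are symmetric 95% t intervals built from the SE.

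The members and the gene lists were chosen with earlier results of these data known, and the lists share some genes. The naming rule takes the targeted genes and the 12 highest and 12 lowest called genes with at least 5 CPM on average and 1 sign in all litters (predicted genes and pseudogenes left out). It also takes up to 6 called members of smallest p and up to 3 uncalled members of highest CPM per list, and the 5 smallest p for each interaction. Any AAV entry gene may be named under it. Six2, Adgre1, Ren1, Vegfa, Vcl, Fhl1, Fhl2, Filip1l, Srf, Alx1, Vcan, Foxc2, Dkk1, Gja4 and Gja5 were named outside it, after their values were seen. Promoter windows are from RefSeq with the build GRCm38.p6, and no other coordinates are given. Alternatives were no block, a block by culture, DESeq2's size factors, DESeq2's own test, no filter, only the compared libraries, no litter 3, and each library left out. The software was edgeR 4.0.16 with limma 3.58.1, and DESeq2 1.42.0, under R 4.3.3.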

Additional observations from a re-analysis of the deposited data

Results flagged for a closer look

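In Mylk-shRNA cultures Zfp738 was higher in the positive fraction of every litter (11.7, 9.37 and 10.1 against 8.46, 6.77 and 7.78 CPM), while in scramble-shRNA cultures it was lower in every litter. The difference of the log2 fold changes, Mylk-shRNA minus scramble-shRNA, was 0.89 and did not pass the adjustment over genes (adjusted p = 0.93). Ttf1 was lower in the positive fraction of every litter with Mylk-shRNA (19.1, 12.4 and 16.9 against 21.2, 19.6 and 21.4 CPM) and higher in every litter with Rock1/2-shRNA. That difference was -0.65 (95% interval -1.04 to -0.26) and did not pass either. Zfp738 and Ttf1 were picked for a small unadjusted p of this difference, so their like signs in every litter follow in part from that choice. The call of Ttf1 between the fractions of Mylk-shRNA cultures was lost in 9 of 13 alternatives.

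The table also holds rows for the ERCC spike-in transcripts, which no comparison here uses. They took 14, 14 and 9 counts in the positive libraries of litters 1, 2 and 3, and 21, 19 and 31 counts in the negative ones, and the sources used here mention no spike-in.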

How the results depend on the processing

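Without the replicate block for litter, 2186 genes were called (1335 higher, 851 lower), and all 2186 were among the 4019 called with it. With only the 6 Mylk-shRNA libraries in the fit, which leaves fewer samples for the spread, 2192 were called (1216 higher, 976 lower). A block by culture, in which each positive library is paired with its own negative one, kept 3579 of the calls, DESeq2's test kept 3470, DESeq2's size factors 3963, and leaving out litter 3 kept 3078. With 1 Mylk-shRNA library left out in turn the higher calls ran from 1599 to 2377 and the lower calls from 1228 to 2250. The difference from scramble-shRNA, with 0 genes called, gave 1 gene called, 1 of them lower, with no filter on low counts, and the cause was not tested.

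Of 187 named genes (AU040320 aside) 22 were no longer called without the block, 18 of 184 with only the 6 libraries, 11 without litter 3, 4 with the block by culture, 4 with DESeq2's test, and 4 to 11 with 1 library left out. No called gene changed sign. Cited1 and Mcm7 became called, both lower, without litter 3 or its negative library, Eng became called, higher, without litter 3, either of its libraries or the filter, Actg1 with DESeq2's test, no filter or the negative library of litter 2 left out, and Rock2, Npc2 and Ren1 with 1 library left out. Among the uncalled genes, Rock1 changed from -0.05 to 0.0031 without litter 3 and ran from -0.108 to 0.046 with 1 library left out, Calr gave 0.017 without litter 3 (-0.119 to 0.013 with 1 library out), Pcna -0.030 (-0.083 to 0.132) and Ahsp -0.72 (-0.37 to 1.51). Slc4a1 gave -0.11 without the block and -0.14 with DESeq2's test (-0.46 to 0.73 with 1 library out), Fos gave 0.12 without the block, and Mcam ran from -0.038 to 0.214. Depth limits the low genes most: the negative level of Cx3cr1 or C3ar1 rests on 5 or 6 counts.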
